A study of Homo sapiens with 2 samples.

Results

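The regulators described here are the E2F, RB and DREAM genes E2F1, E2F2, E2F3, E2F7, E2F8, TFDP1, RB1, RBL1, MYBL2 and FOXM1, which are 10 of the 33538 genes in the single-cell count tables of CHLA9 and TC71. They were listed by name as transcription regulators of the cell cycle, with no measured value in the rule, though earlier results of these data were known when the list was made, and all 10 were counted in both lines. CHLA9 and TC71 are established lines of Ewing sarcoma, a tumor of bone and soft tissue driven by a fusion of EWSR1 with an ETS factor gene. Each line was represented by 1 untreated droplet library made with 3′ chemistry, CHLA9 from cells kept in IMDM with 20% serum and insulin, transferrin and selenite, TC71 from cells kept in RPMI with 10% serum. The CHLA9 library was also sequenced a further time on another instrument, and effects of the line, its medium and its sequencing cannot be told apart. Another line of the series was not analysed here.

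Cells were kept when they held 5000 or more unique molecular identifiers (UMIs) and 2000 or more genes, with mitochondrial UMIs at no more than 15%, which left 4524 of 5077 barcodes in CHLA9 and 1729 of 8468 in TC71. The kept cells held a median of 34656 UMIs in CHLA9 and 33370 in TC71, and 174975302 and 58355173 UMIs in all. Of the 8 Ewing sarcoma markers checked, CD99, NKX2-2, NR0B1, PRKCB, STEAP1, LIPI and FLI1 had at least 9.89 UMIs per 1000000 UMIs of the summed cells (CPM) in both lines, while CCK was at 1671 CPM in CHLA9 against 0.840 CPM in TC71. The defining immune and endothelial markers CD3E and VWF had 0 UMIs in both libraries. The collagen gene COL1A2 was at 203 CPM in CHLA9 against 0.0343 CPM in TC71, and the keratin gene KRT18 at 118 and 296 CPM. The 2 libraries shared 16 barcodes, 3 of them among kept cells. The cells of a library do not replicate the line, and neither lines nor phases were compared by a test. All intervals are 95% intervals and cover counting error only. They are exact, except those of the lag between activators and repressors and of log2 ratios between phases, which are approximate.

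E2F factors bind DNA as partners of a DP protein and control genes of DNA synthesis and the cell cycle. The pocket proteins of the RB family bind E2F factors and hold these genes down until cyclin-dependent kinases phosphorylate them. In quiescent cells, pocket proteins, E2F and the MuvB core form the DREAM repressor complex. In dividing cells the MuvB core instead joins B-MYB, the product of MYBL2, and FOXM1 to drive genes of mitosis. E2F1, E2F2 and E2F3 are the activator E2Fs, and E2F7 and E2F8 are atypical E2Fs that repress the same kind of target without a DP partner.

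The promoters of E2F genes are themselves known to hold E2F sites, so the windows of the regulators were searched for E2F words. RefSeq windows on GRCh38.p14, from 250 bases before to 50 bases after a gene's start, were used for 8 of the 10 regulators, all but E2F8 and FOXM1. The words TTTCCCGC, TTTGGCGC, TTTCGCGC and TTTGCCGC, read on either strand, were found in the windows of E2F1, E2F2, E2F3, TFDP1 and RBL1, which is 5 of 8, against 3.99% of 27305 genes. The windows of E2F7 and MYBL2 held none, and the RB1 window was at an internal start 172706 bases inside the gene, so that it does not describe the main RB1 promoter. The 150 bases before the start are printed 5′ to 3′ on the gene's strand for the activators and for RBL1, since these are the regulators with a word and with the same start in RefSeq and GENCODE. Capitals mark the E2F words. The E2F1 window was chr20:33686386-33686535 on the minus strand, E2F2 chr1:23531234-23531383 on the minus strand, E2F3 chr6:20401729-20401878 on the plus strand and RBL1 chr20:37095998-37096147 on the minus strand.
E2F1: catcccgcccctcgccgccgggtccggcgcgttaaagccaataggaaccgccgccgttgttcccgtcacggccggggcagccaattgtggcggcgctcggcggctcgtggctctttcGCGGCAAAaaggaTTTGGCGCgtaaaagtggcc
E2F2: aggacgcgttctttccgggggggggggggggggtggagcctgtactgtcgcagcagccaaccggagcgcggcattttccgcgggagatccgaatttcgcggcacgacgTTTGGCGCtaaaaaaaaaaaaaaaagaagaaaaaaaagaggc
E2F3: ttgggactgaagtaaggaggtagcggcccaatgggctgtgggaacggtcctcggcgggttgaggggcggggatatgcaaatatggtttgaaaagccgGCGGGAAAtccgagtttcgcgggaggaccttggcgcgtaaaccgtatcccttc
RBL1: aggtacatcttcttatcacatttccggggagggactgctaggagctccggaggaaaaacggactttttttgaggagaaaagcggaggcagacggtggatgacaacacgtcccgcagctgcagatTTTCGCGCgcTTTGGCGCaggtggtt
E2F1 and RBL1 held 2 words each, and the first base of each word lay within 33 bases of the start. A second RefSeq start of E2F3, 1735 bases further in, had no word. These matches describe the letters of the windows and do not show binding.

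All 3 activators had a higher level in CHLA9. E2F1 was at 68.5 CPM (67.3 to 69.7) in CHLA9 against 38.5 CPM (36.9 to 40.1) in TC71, a log2 ratio of CHLA9 over TC71 of 0.83 (0.77 to 0.90). E2F2 was at 44.9 CPM (43.9 to 45.9) and 16.1 CPM (15.1 to 17.2), a log2 ratio of 1.48 (1.38 to 1.58), which made it the most different of the activators. E2F3, whose long and short isoforms are counted together by 3′ reads, was at 69.2 CPM (68.0 to 70.5) and 46.3 CPM (44.6 to 48.1), a log2 ratio of 0.58 (0.52 to 0.64).

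The repressors differed in opposite directions. E2F7 was the regulator with the lowest log2 ratio, with 13.9 CPM (13.4 to 14.5) in CHLA9 against 23.1 CPM (21.8 to 24.3) in TC71, a log2 ratio of -0.73 (-0.83 to -0.63). E2F8 was at 25.3 CPM (24.5 to 26.0) and 16.1 CPM (15.1 to 17.2), a log2 ratio of 0.65 (0.55 to 0.75). E2F8 thus exceeded E2F7 in CHLA9 and E2F7 exceeded E2F8 in TC71, while the sum of both repressors was nearly equal, 39.21 CPM in CHLA9 and 39.17 CPM in TC71.

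The E2F partner and the pocket proteins were closer between the lines. TFDP1, which encodes the DP1 partner of the activators, was at 120.4 CPM in CHLA9 and 98.8 CPM in TC71. RB1, the retinoblastoma tumor suppressor gene, was at 38.3 CPM (37.4 to 39.2) and 43.97 CPM (42.3 to 45.7), and RBL1, which encodes the pocket protein p107, at 24.2 CPM (23.5 to 24.9) and 28.4 CPM (27.0 to 29.8). RB1 was therefore transcribed in both lines, with a log2 ratio of -0.20, and RBL1 had a log2 ratio of -0.23. The RBL1 count was 0.631 times the RB1 count in CHLA9 and 0.646 times in TC71.

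The factors of the late cell cycle were both higher in CHLA9. MYBL2, which encodes B-MYB, was at 195 CPM (193 to 197) and 114 CPM (111 to 117), a log2 ratio of 0.77. FOXM1, a forkhead activator of mitotic genes, was at 100.3 CPM (98.9 to 101.8) and 34.1 CPM (32.6 to 35.6), the largest log2 ratio of the 10, 1.56 (1.49 to 1.62). Over the 10 regulators, 2 were at least 2-fold higher in CHLA9, namely E2F2 and FOXM1, where 17.5% of the 10774 genes that reached 5 CPM in CHLA9 or TC71 were. None was at least 2-fold higher in TC71, where 10.5% of genes were. Among 10 regulators these counts are near the background, and the median log2 ratio was 0.62 for the regulators and 0.21 for all genes.

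**Figure D1:**
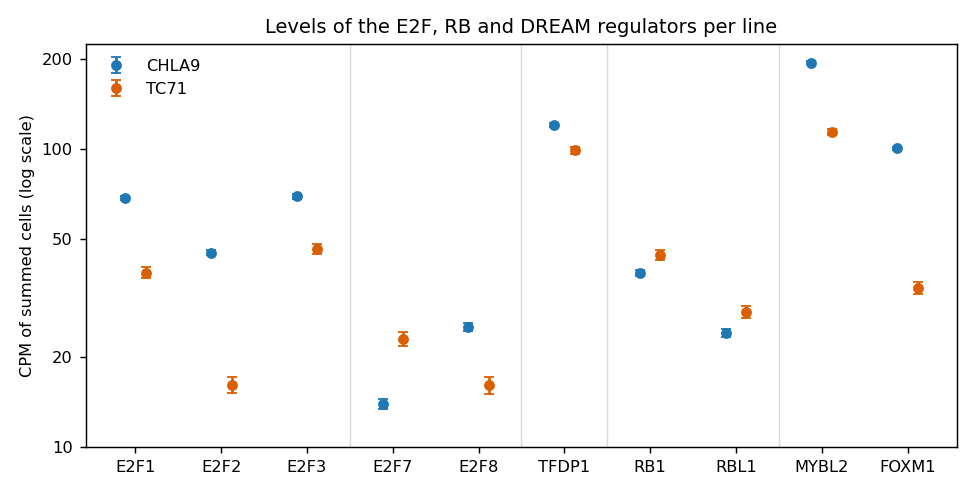
Level of each regulator in the kept cells of CHLA9 and TC71, as CPM of summed UMIs on a log scale, with exact 95% Poisson intervals. E2F7, RB1 and RBL1 were higher in TC71, with E2F7 at 13.9 and 23.1 CPM, and the other 7 were higher in CHLA9.

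UMIs of 3′ libraries count molecules and were not divided by transcript length, and capture can differ between genes. In CHLA9 the order from high to low was MYBL2, TFDP1, FOXM1, E2F3, E2F1, E2F2, RB1, E2F8, RBL1 and E2F7, in which the intervals of E2F3 and E2F1 overlapped, as did those of E2F8 and RBL1. In TC71 the order was MYBL2, TFDP1, E2F3, RB1, E2F1, FOXM1, RBL1, E2F7, E2F2 and E2F8, in which E2F3 overlapped RB1 and E2F2 overlapped E2F8. FOXM1 was placed 3rd in CHLA9 and 6th in TC71, and E2F2 6th and 9th.

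The share of cells with a UMI had the same order between the lines for the regulators that differed most. With every cell thinned to 10000 UMIs, 14 cells of CHLA9 and 59 of TC71 being shallower and left out, FOXM1 was found in 57.2% of CHLA9 cells (55.7 to 58.7) and 28.2% of TC71 cells (26.1 to 30.4). E2F2 was found in 30.5% (29.1 to 31.8) and 14.3% (12.6 to 16.02). E2F7 was found in 11.9% (10.9 to 12.8) and 19.5% (17.6 to 21.4). Without thinning, the shares were 88.0% and 64.3% for FOXM1, 59.8% and 37.9% for E2F2, and 34.4% and 48.2% for E2F7, in the same order between the lines. No cell type that lacks these genes was present in either library, so the share that free RNA alone gives could not be measured.

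Activators were then set against repressors. The UMIs of E2F1, E2F2 and E2F3 together were 4.66 times those of E2F7 and E2F8 in CHLA9 (4.54 to 4.78) and 2.57 times in TC71 (2.45 to 2.70). The activator sums were 183 CPM in CHLA9 and 101 CPM in TC71, beside repressor sums that were alike. E2F2 gave 24.6% of the activator UMIs in CHLA9 and 15.99% in TC71, and E2F7 gave 35.5% and 58.9% of the repressor UMIs.

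Activators and repressors were also counted in single cells. In thinned CHLA9 cells, 21.8% (20.6 to 23.0) had UMIs of both kinds, 52.3% (50.8 to 53.7) of activators alone and 4.88% (4.27 to 5.55) of repressors alone. In TC71 the shares were 19.5% (17.6 to 21.5), 41.1% (38.7 to 43.5) and 11.3% (9.78 to 12.9). Cells with a repressor and no activator were thus a larger share of TC71, and without thinning they were 1.24% of CHLA9 and 3.35% of TC71 cells, with both kinds in 54.3% and 61.5%. A cell without a UMI at this depth may still have held the transcript.

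To place the regulators in the cell cycle, each cell was given an S score and a G2M score from the Seurat gene lists, from which all 10 regulators were left out, and then a phase. G1, S and G2M held 21.8%, 39.1% and 39.1% of the CHLA9 cells and 12.8%, 50.7% and 36.4% of the TC71 cells. The G1 group of TC71 held 222 cells. Median UMIs per cell also differed between phases, from 29183 in G1 to 40820 in G2M in CHLA9 and from 29293 to 37279 in TC71, and levels are CPM, which divides by this total. The part of depth in the phase differences was not tested beyond the values per cell given in the closing section.

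Most regulators were highest in S, though the share of all genes highest in S at any fold was not counted. In CHLA9, 9 of 10 had their highest level in S, the exception being FOXM1 in G2M, and 7 of 10 were at least 1.5-fold above their lowest phase, against 11.4% of the 9907 genes outside the phase lists with at least 5 CPM. Of these 7, 6 peaked in S, a pattern that 4.34% of genes had. E2F8, which is counted among the regulators in both lines, is itself on the Seurat S list, whose genes these shares leave out. In TC71, 8 of 10 were highest in S, with FOXM1 and RB1 in G2M, and 7 of 10 passed 1.5-fold, against 9.57% of 9740 genes, but only 3 or 4 passed when phases were scored on all genes, on both libraries together or on thinned cells. Of these 7, 6 also peaked in S, against 1.57% of genes. For E2F3, RB1 and RBL1 of TC71 the intervals of the S and G2M levels overlapped. The median fold between the highest and lowest phase over the regulators was 2.15 in CHLA9 and 1.77 in TC71, and over all genes 1.19 in each line.

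Among the activators, E2F2 had the widest phase difference in CHLA9. E2F2 was at 14.5 CPM in G1, 84.8 in S and 22.6 in G2M in CHLA9, and at 10.4, 22.0 and 10.4 CPM in TC71. E2F1 was at 51.3, 119.7 and 31.1 CPM in CHLA9 and 34.9, 54.5 and 19.6 CPM in TC71, so that its lowest phase was G2M in both lines. E2F3 varied less, with 61.4, 89.6 and 54.8 CPM in CHLA9 and 30.5, 49.3 and 46.9 CPM in TC71. Its level in G2M was below that in G1 in CHLA9 and above it in TC71, but in UMIs per cell it was also above in CHLA9, by 0.30 on the log2 scale against -0.16 in CPM.

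The repressors were low in G1 of CHLA9. E2F8 was at 2.77 CPM in G1 (2.22 to 3.42), 41.3 in S and 20.5 in G2M, a 14.9-fold range, which was the largest of the 10. E2F7 was at 5.38 CPM in G1 (4.59 to 6.26), 22.6 in S and 9.82 in G2M. In TC71 the G1 levels were higher and the ranges smaller, with E2F8 at 6.64, 20.0 and 13.9 CPM and E2F7 at 14.1, 27.4 and 20.1 CPM. Smaller ranges in TC71 were shared by the G1/S and G2/M genes described below. Their median folds between phases were 1.41 and 2.21 in TC71, against 2.08 and 7.39 in CHLA9. After thinning, E2F8 was found in 2.04% of CHLA9 cells in G1 and 31.0% in S, and in 4.46% and 17.9% of TC71 cells.

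TFDP1 and RB1 varied little between phases, while RBL1 varied more in TC71. TFDP1 differed by 1.40-fold between its highest and lowest phase in CHLA9 and 1.22-fold in TC71, and RB1 by 1.27-fold and 1.26-fold. RBL1 was at 20.1 CPM in G1, 27.0 in S and 23.4 in G2M in CHLA9, and at 15.96, 30.8 and 28.9 CPM in TC71, where its range was 1.93-fold. MYBL2 was at 134 CPM in G1, 220.1 in S and 197 in G2M in CHLA9, and at 99.4, 125 and 104 CPM in TC71. FOXM1 was at 50.1, 85.9 and 133 CPM in CHLA9 and 26.4, 30.1 and 41.2 CPM in TC71.

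A finer order was read from the angle between the S and G2M scores. Both scores were set to mean 0 and SD 1 in each library and the plane was divided into 8 sectors of 45°, starting where both scores were low, with the mean S score highest in sector 4 and the mean G2M score in sector 7. Genes outside the phase lists served as landmarks: CCNE1 (cyclin E1), CDC25A and MCM3 had their highest level in sector 4 and CCNA2, CCNB1 and PLK1 in sector 7 in both lines, and MCM7 was highest in sector 5 in CHLA9 and sector 4 in TC71. The range was smaller in TC71, with an 11.0-fold range of CCNB1 (cyclin B1) over the sectors in CHLA9 and 4.37-fold in TC71, and PTTG1 peaked in sector 8 in CHLA9 and sector 1 in TC71. Sectors 5 and 6 of TC71 held 65 and 58 cells.

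In CHLA9 the activators came first, then E2F8 with MYBL2, and FOXM1 last, while E2F7 was about as high in sector 4 as in sector 5. There, E2F1 passed through 33.0, 58.7, 107.6, 135, 77.6, 49.2, 24.1 and 31.1 CPM from sector 1 to sector 8. E2F2 passed through 6.88, 17.5, 65.3, 98.3, 59.1, 33.5, 19.5 and 18.8 CPM. Both had their highest level in sector 4, as had E2F3 with 93.5 CPM against 49.0 CPM in sector 1.

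E2F8 came later and had the widest range of the regulators, 29.9-fold over the sectors of CHLA9. Its levels from sector 1 to sector 8 were 1.81, 2.61, 16.8, 47.8, 54.1, 43.1, 17.6 and 5.15 CPM. E2F7 was at 25.8 CPM in sector 4 and 25.2 CPM in sector 5, which are not apart beyond their intervals, and at 3.62 CPM in sector 1. MYBL2 was highest in sector 5 with 263 CPM, and FOXM1 in sectors 6 and 7 with 141 and 139.9 CPM. TFDP1, RB1 and RBL1 also had their highest level in sector 5, at 152, 49.1 and 36.7 CPM.

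In TC71 the range over the sectors was smaller for 8 of the regulators, but not for RBL1 (2.90-fold against 2.28-fold in CHLA9) and E2F3 (1.957-fold against 1.909-fold). E2F1 was at 58.8 CPM in sector 4 and 19.6 CPM in sector 7, E2F2 at 23.7 CPM in sector 3 and 6.44 CPM in sector 1, and E2F8 at 24.1 CPM in sector 4 and 6.06 CPM in sector 1. E2F7 reached 40.8 CPM in sector 5 from 12.1 CPM in sector 1. FOXM1 was highest in sector 7 with 41.5 CPM and lowest in sector 2 with 25.4 CPM, and MYBL2 ranged from 94.9 to 130.3 CPM.

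**Figure D2:**
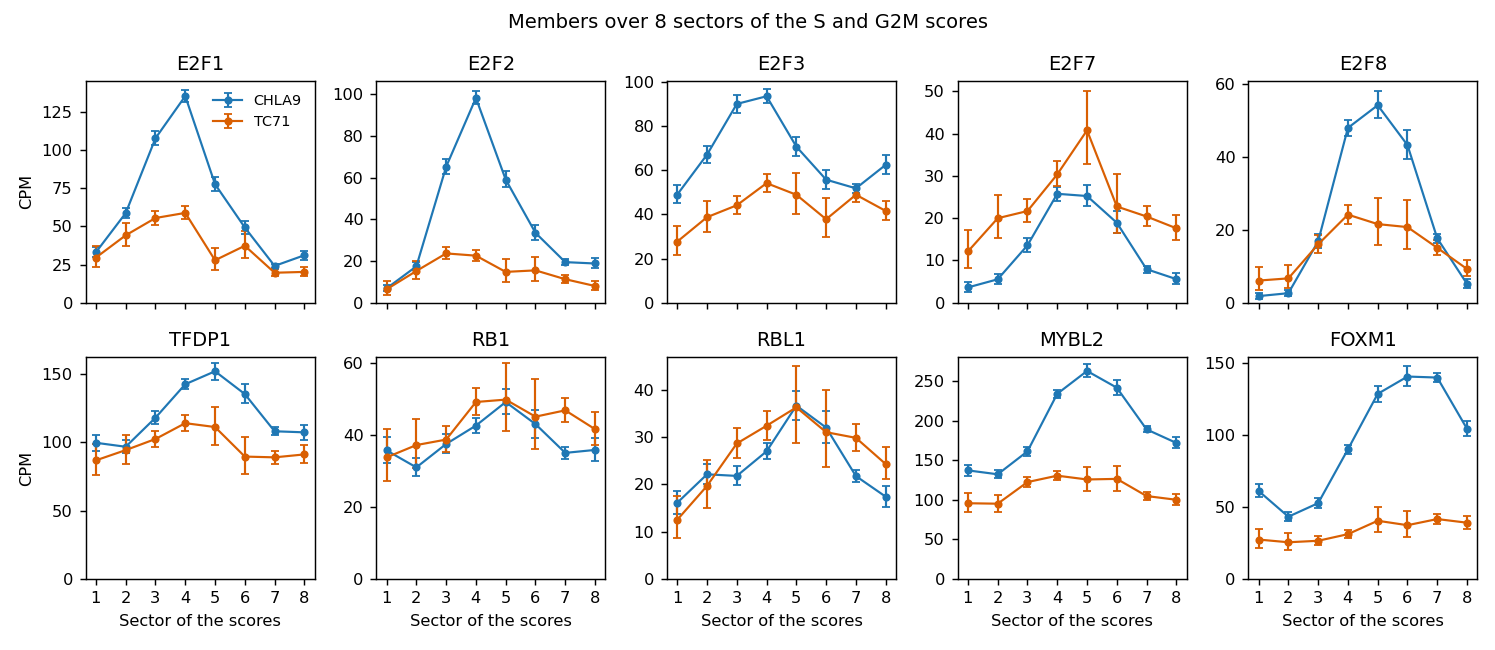
CPM of each regulator over the 8 sectors of the S and G2M scores in CHLA9 and TC71, with exact 95% Poisson intervals and an axis of its own from 0 for each gene. In CHLA9, E2F1, E2F2 and E2F3 peaked in sector 4, E2F8, TFDP1, RB1, RBL1 and MYBL2 in sector 5 and FOXM1 in sector 6. E2F7 was also highest in sector 4 of CHLA9, with 25.8 CPM, and its interval overlapped that of sector 5, with 25.2 CPM. The range over the sectors was smaller in TC71 except for RBL1 (2.90-fold against 2.28-fold) and E2F3 (1.957-fold against 1.909-fold).

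The summed repressors lagged the summed activators in both lines. The mean angle of the summed activators was 152° in CHLA9 and 148° in TC71, counted from the start of sector 1, and that of the summed repressors was 198° and 195°. The repressors lagged by 46.3° in CHLA9 (43.8 to 48.8) and 46.6° in TC71 (33.4 to 59.9), about the width of 1 sector. E2F3 of TC71 was an exception among single genes, with a mean angle of 193° beside 191° for E2F7 and 200.02° for E2F8. The angle is a position in the plane of the scores and not a time. FOXM1 had a mean angle of 255° in CHLA9 and 264° in TC71, and MYBL2 of 216° and 189.5°.

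The ratio of activator to repressor UMIs varied over the sectors. In CHLA9 it was 16.4 (12.6 to 21.6) in sector 1, 17.6 in sector 2, 8.65 in sector 3, 4.44 in sector 4, 2.61 in sector 5, 2.23 (2.04 to 2.44) in sector 6, 3.73 in sector 7 and 10.5 in sector 8. In TC71 it was 3.5 (2.53 to 4.93), 3.68, 3.27, 2.49, 1.47 (1.18 to 1.83), 2.08, 2.25 and 2.60. The lines were therefore farthest apart in the sectors of low scores, where CHLA9 had 5.43 CPM of repressors in sector 1 and TC71 18.2 CPM. The landmark CCNA2 was also higher in sector 1 of TC71, at 90.9 CPM against 34.5 CPM in CHLA9. Of the other landmarks in sector 1, CDC25A, CCNB1 and PLK1 were higher in TC71, and CCNE1, MCM3, MCM7 and PTTG1 were lower. Whether a sector holds the same stage of the cycle in both lines was not tested. In sector 6 the intervals of the ratio overlapped between the lines.

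**Figure D3:**
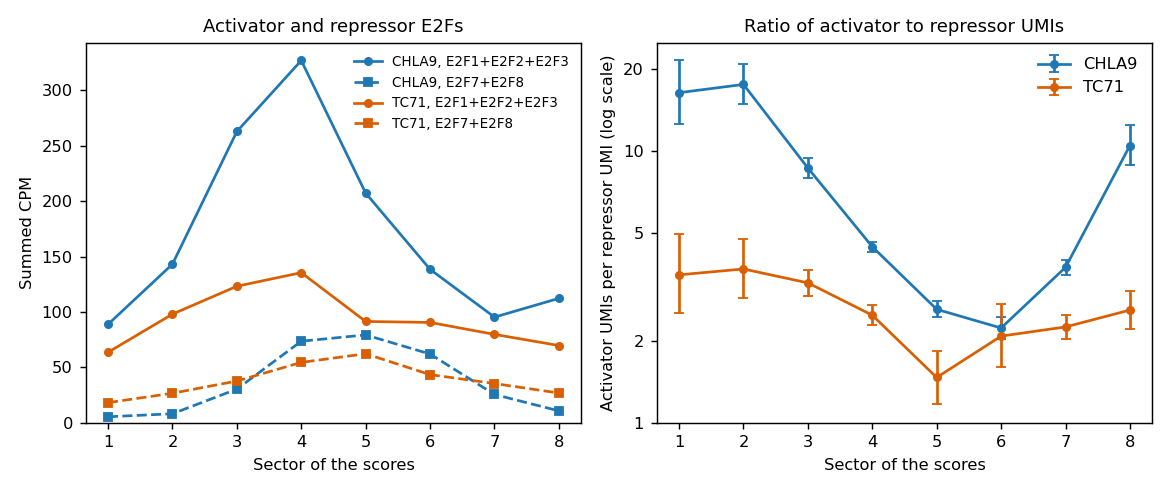
Summed CPM of the activators (E2F1, E2F2, E2F3) and of the repressors (E2F7, E2F8) over the 8 sectors, and the ratio of activator to repressor UMIs on a log scale with exact 95% intervals. In CHLA9 the ratio went from 17.6 in sector 2 to 2.23 in sector 6, and in TC71 from 3.68 in sector 2 to 1.47 in sector 5.

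Other genes with the same course were sought over the 16 sectors of both lines, with log2(CPM + 1) centred on the mean of each line, for the 6 regulators past 1.5-fold in both lines and among the genes outside the phase lists with at least 20 CPM in both lines. E2F2 was most like CDC25A (r = 0.979), the phosphatase that activates CDK2, and MCM10 (r = 0.978), a replication initiation factor. Among the genes most like E2F7 were RFC5 (r = 0.983), a subunit of the clamp loader, and POLE (r = 0.981), a DNA polymerase. E2F8 was most like FBXO5 (r = 0.984), which encodes an inhibitor of the anaphase-promoting complex, and FOXM1 was most like SPC25 (r = 0.979), a kinetochore gene. E2F1 was most like GGCT (r = 0.954) and E2F3 most like E2F6 (r = 0.940), a further E2F repressor. The points share a library and a common set of scores, so the correlations are a description. Among the regulators themselves, E2F7 and E2F8 had r = 0.932, MYBL2 and E2F8 had r = 0.939, and E2F1 and FOXM1 had r = -0.38.

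Upstream of RB, 3 of the 10 cyclins and kinases and 3 of the 6 measured cyclin-dependent kinase inhibitors were at least 2-fold apart, against 17.5% of all genes higher in CHLA9 and 10.5% higher in TC71, so that 3 of 10 is near the background. CDKN2A, which encodes the CDK4 and CDK6 inhibitor p16 and also p14ARF, had 21189 UMIs and 121 CPM in CHLA9 and 47 UMIs and 0.805 CPM in TC71. CDK6, a kinase that phosphorylates RB, had 4 UMIs in CHLA9 and 902 UMIs in TC71, or 0.0229 and 15.5 CPM. CCND2 (cyclin D2) was at 50.7 CPM in CHLA9 and 1.66 CPM in TC71. Thus CHLA9 had the higher CDKN2A and CCND2 and TC71 the higher CDK6, while CDK4 was at 170.1 and 166 CPM and CCND1 (cyclin D1), the highest of the list, at 2510.5 and 1451 CPM.

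The other members of these lists past 2-fold were CCNE1 at 8.27 CPM in CHLA9 and 3.98 CPM in TC71, CDKN1C (p57) at 6.20 and 1.89 CPM, and CDKN1A (p21) at 0.263 and 7.20 CPM. CDKN2B was below 5 CPM in both lines. None of E2F4, E2F5, E2F6 and TFDP2 was 2-fold apart. RBL2, which encodes the pocket protein p130, was at 18.2 and 29.2 CPM. Of the MuvB core and MYBL1, with LIN37 below 5 CPM in both lines, 2 of 5 were at least 2-fold higher in CHLA9, where 17.5% of all genes were, RBBP4 at 354 and 174 CPM and MYBL1 at 55.1 and 25.8 CPM.

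**Figure D4:**
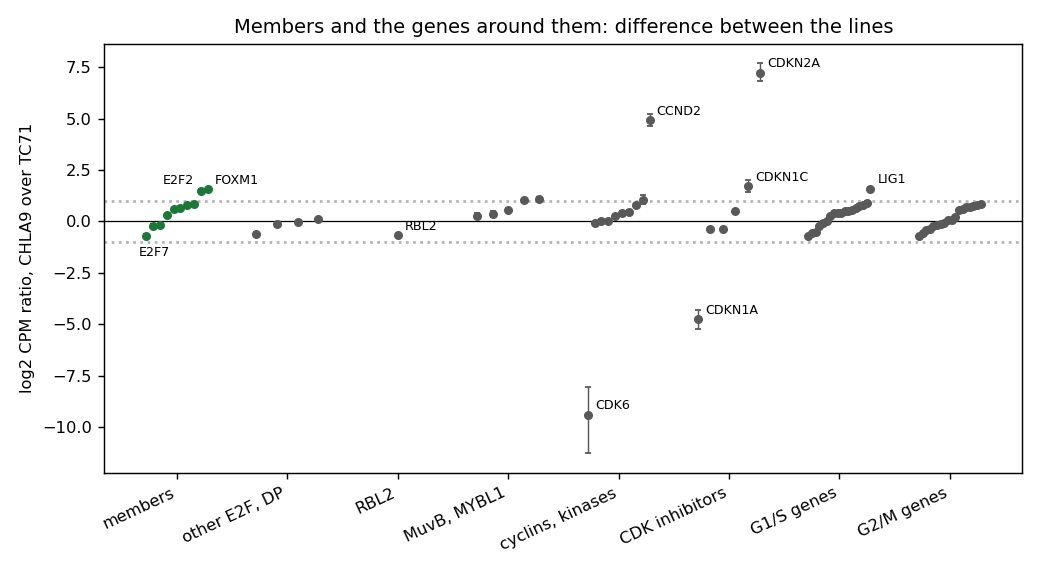
Log2 ratio of CPM, CHLA9 over TC71, for the 10 regulators (green) and the genes of 7 pathway lists that reached 5 CPM in CHLA9 or TC71, sorted within each list, with 95% intervals and dotted lines at 2-fold. CDKN2A (7.23), CCND2 (4.93), CDKN1A (-4.77) and CDK6 (-9.40) lay farthest from 0, while the regulators lay between -0.73 and 1.56.

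Few of the genes downstream were 2-fold apart between the lines. Of 18 G1/S genes known as E2F targets, LIG1 (DNA ligase 1) was the 1 gene at least 2-fold higher in CHLA9, at 72.4 and 24.01 CPM, and none was 2-fold higher in TC71, with a median log2 ratio of 0.41. Of 18 G2/M genes known as targets of B-MYB, MuvB and FOXM1, none was 2-fold apart in either direction, with a median log2 ratio of 0.07, beside the log2 ratio of 1.56 of FOXM1 itself. Over all genes the median was 0.21, with 17.5% at least 2-fold higher in CHLA9 and 10.5% at least 2-fold higher in TC71. The lists hold 18 genes each, and their difference from these shares was not tested.

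Within the cell cycle these lists separated more in CHLA9. In CHLA9, 15 of 18 G1/S genes passed 1.5-fold and all 15 were highest in S, and 18 of 18 G2/M genes passed and were highest in G2M. In TC71 the counts were 4 of 18 in S and 15 of 18 in G2M. Over all genes outside the phase lists, 11.4% passed in CHLA9 and 9.57% in TC71. Those that passed and were highest in S were 4.34% and 1.57% of genes. The share that passed and was highest in G2M was not counted. The median fold between phases over the G1/S genes was 2.08 in CHLA9 and 1.41 in TC71, and over the G2/M genes 7.39 and 2.21, beside 2.15 and 1.77 over the regulators. CDKN1B (p27), CDKN2C (p18) and CDKN2D (p19) were highest in G2M in both lines, with folds of 3.60, 4.81 and 3.36 in CHLA9 and 1.93, 1.64 and 1.46 in TC71. None of E2F4, E2F5, E2F6 and TFDP2 passed 1.5-fold in either line, and RBL2 passed in TC71 (1.54-fold) and had a 1.23-fold range in CHLA9. Of the MuvB core and MYBL1, 2 of 5 passed in CHLA9, both highest in S, and 3 of 5 in TC71, all highest in G2M. Of the cyclins and kinases outside the phase lists, 4 of 8 passed in CHLA9 and 3 of 7 in TC71.

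The promoter words of the lists differed as well. Among the G1/S genes, 9 of the 17 with a window held an E2F word, against 3.99% of all genes. Among the G2/M genes it was 0 of 16, which is near that share. The word TTTGAA, the core of the CHR element that MuvB binds, was in 10 of 16 windows of the G2/M genes, 2 of 17 of the G1/S genes and 1 of 8 of the regulators, that of E2F3, against 18.2% of all genes. CCAAT was in 14 of 16, 10 of 17 and 3 of 8, against 39.7% of all genes.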

How the data were processed

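Per the labels, cells of CHLA9 and TC71 were processed with the Single Cell 3′ V3.1 kit. Reads were aligned to hg38 and UMIs counted by the authors with Cell Ranger 3.1.0, and the deposited values are raw counts without normalization. The study's other line and bulk data were not analysed here.

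Python 3.11.15 with numpy 2.4.6, pandas 2.3.3, scipy 1.17.1, scanpy 1.11.5 (Scrublet) and matplotlib 3.10.9, and R 4.3.3 with Seurat 5.3.0 and Matrix 1.6.5, were used. Counts of kept cells were summed per line, phase or sector and given as CPM. Intervals of levels, shares, activator to repressor ratios and log2 ratios between the lines are exact Poisson or Clopper-Pearson intervals at 95%. Those of the lag and of log2 ratios between phases are normal approximations from the same counts. Doublets were kept; Scrublet called 9.88% of CHLA9 and 0.694% of TC71 cells. Phases were scored per library on genes found in at least 10 cells, with seed 1, from 41 of 43 S and 52 of 54 G2M list genes, the regulators being left out of lists and control genes. Of the removed barcodes, 277 of CHLA9 and 5869 of TC71 held under 5000 UMIs.

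All 10 regulators were named, the genes of fixed pathway lists by count, and up to 3 genes most like each regulator past 1.5-fold between phases in both lines, by correlation over the sectors. One of these genes is not reported here. The regulators and the lists were chosen with earlier results of these data known. With 1 library per line, no p-value is given. Gene starts came, by gene identifier, from GENCODE 44 (GRCh38), and promoter windows from RefSeq on GRCh38.p14. The timing over the sectors and the Poisson intervals were tested on simulated data, and the other steps were not.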

Additional observations from a re-analysis of the deposited data

Results flagged for a closer look

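E2F3 differed in direction between the lines from G1 to G2M. Its log2 ratio of G2M over G1 was -0.16 in CHLA9 (95% interval -0.24 to -0.09) and 0.62 in TC71 (0.40 to 0.84). The difference was not tested, since each line had 1 library, and the ratio of CHLA9 turned to 0.30 when UMIs per cell were used in place of CPM.

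The barcodes left out for low depth also held the regulators. The 5869 TC71 barcodes under 5000 UMIs held 3311 UMIs of the 10 genes, with 41.3 CPM of RB1 and 35.8 CPM of E2F1, where the kept cells had 43.97 and 38.5 CPM. Their ratio of activator to repressor UMIs was 2.98 (2.57 to 3.45), beside 2.57 in the kept cells. In CHLA9, the 277 barcodes under 5000 UMIs differed more from the kept cells, with 9.71 CPM of RB1 (3.90 to 20.0) against 38.3, 61.0 CPM of MYBL2 (44.3 to 81.9) against 195, and a ratio of 8.14 (4.66 to 15.4) against 4.66. There is no control sample against which to read these values.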

How the results depend on the processing

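No paired analysis was possible because CHLA9 and TC71 had 1 library each and nothing was tested. Alternatives changed the filters, doublets, scaling, phase scoring, sectors and depth, and leaving out barcodes found in both libraries was added after seeing the data. Of the summary values recomputed, 75 stayed within their limits and 11 moved. The lag of the repressors in CHLA9 was 52.6° without the 8% of cells with the highest Scrublet score, 37.3° in UMIs per cell and 41.3° in sectors of equal numbers of cells. The ratio of activators to repressors in CHLA9 was 4.99 as the mean over cells. The number of regulators past 1.5-fold in TC71 was 3 with phases scored on all genes, 4 with both libraries together and 4 on thinned cells. The median share of cells with a UMI of a regulator, 37.4% in CHLA9 and 29.3% in TC71, was 22.6% and 16.2% at 5000 UMIs and 73.8% and 64.2% without thinning. Of the values of single genes, 416 stayed within their intervals, 83 moved and 1 reversed, the log2 ratio of G2M over G1 of E2F3 in CHLA9, at 0.30 in UMIs per cell. Values whose main interval included 0 also changed sign, all in TC71: G2M over G1 of E2F2 kept its sign in 6 of 11 alternatives (-0.71 to 0.37), and those of MYBL2 (-0.08 to 0.43) and TFDP1 (-0.09 to 0.32) and S over G1 of FOXM1 (-0.00397 to 0.39) in 10 of 11. The log2 ratio between the lines kept its sign for all 10 regulators under all 6 alternatives. The causes of these shifts were not tested. The 222 cells in G1 of TC71 and its sectors of 58 and 65 cells limit the precision there.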
